A study of Mus musculus with 24 samples.

Results

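The comparison described here is the difference between the effect of the MLL::ENL fusion on gene expression at postnatal day 28 (P28) and its effect at day 0 (P0). It used 16 of the 24 RNA-seq libraries of the series, chosen by their labels as 4 groups of 4. The groups were wild type at P0 (P0 WT), MLL::ENL induced at E10.5, in the embryo, and collected at P0 (P0 ME), wild type at P28 (P28 WT), and MLL::ENL induced at E10.5 and collected at P28 (P28 ME). The interaction of a gene is its log2 change of ME against WT at P28 minus the same change at P0, so a positive value means that the fusion effect was higher at P28.

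The mice were a Tet-off model of the human fusion gene, in which withdrawal of the tetracycline-class drug switches the transgene on. The driver of the Tet-off transactivator and the strain are not given in the sources used here. P0 cells came from the liver and P28 cells from the bone marrow, so age and tissue cannot be told apart in any value below. The labels call the sorted cells LSK, which are lineage-negative progenitors carrying Sca-1 and KIT, whereas the design text describes a sort on lineage markers and KIT. The replicates are described as biological. The transgene, being human, is no entry of the mouse table and was not analysed here, so the labels were checked only through endogenous genes.

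MLL, encoded by Kmt2a, is a histone methyltransferase of the COMPASS family that keeps HOX genes active in blood progenitors. In MLL::ENL its chromatin-binding part is joined to ENL, encoded by Mllt1, a component of the machinery that releases paused RNA polymerase and recruits the methyltransferase DOT1L. The fusion is found in acute leukaemias of infants and children, and blood progenitors of the newborn liver and of the young adult marrow differ in cell division and gene programme.

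The libraries held 31233688 to 89774511 counts, and the P0 libraries varied more than the P28 libraries. Correlation with the mean of the other libraries of the group, over 10232 genes in log2 CPM (counts scaled to a common library total), was 0.835 to 0.960 at P0 and 0.971 to 0.989 at P28. The lowest value belonged to P0 WT library 4, which also had the lowest scaling factor (0.820 against 0.939 to 1.08 in the other 15) and the highest mitochondrial share of counts (3.46%). Summed over 4 LSK genes (Kit, Ly6a, Cd34 and Flt3), expression was 1385 to 3561 CPM at P0 and 3233 to 3917 CPM at P28. Ly6a, the Sca-1 gene, was at 71.25 to 228 CPM at P0 and 210 to 337 CPM at P28. Kit was at 169 CPM in P0 WT library 4, against 616 to 1451 CPM in the other P0 WT libraries and 453 to 1360 CPM in P0 ME. At P28 it was at 586 to 748 CPM in WT and 889 to 1241 CPM in ME. All 4 genes were thus expressed in each library, but such sums cannot show what share of the cells was LSK. Erythroid markers (5 genes) summed to 227 CPM in P0 WT library 1 and 63.2 CPM in P0 ME library 1, against 3551 to 11534 CPM in the other P0 libraries and 162 to 332 CPM at P28. Neutrophil markers (4 genes) followed the same split, with 50.4 and 179 CPM in the P0 libraries numbered 1 and 5003 to 19863 CPM in the others. Mast cell and basophil markers (5 genes) summed to 3795 CPM in P0 WT library 1, against 434 to 868 CPM in the other P0 WT libraries. In P0 ME they summed to 40.3 CPM in library 1 and 205 to 503 CPM in the others. The P0 libraries numbered 1 thus went opposite ways for these markers. In a bulk sample, fewer cells of a type and less RNA per cell cannot be told apart. For most gene lists, values with these P0 libraries left out, or numbered 1 alone, stand beside the results.

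**Figure D1:**
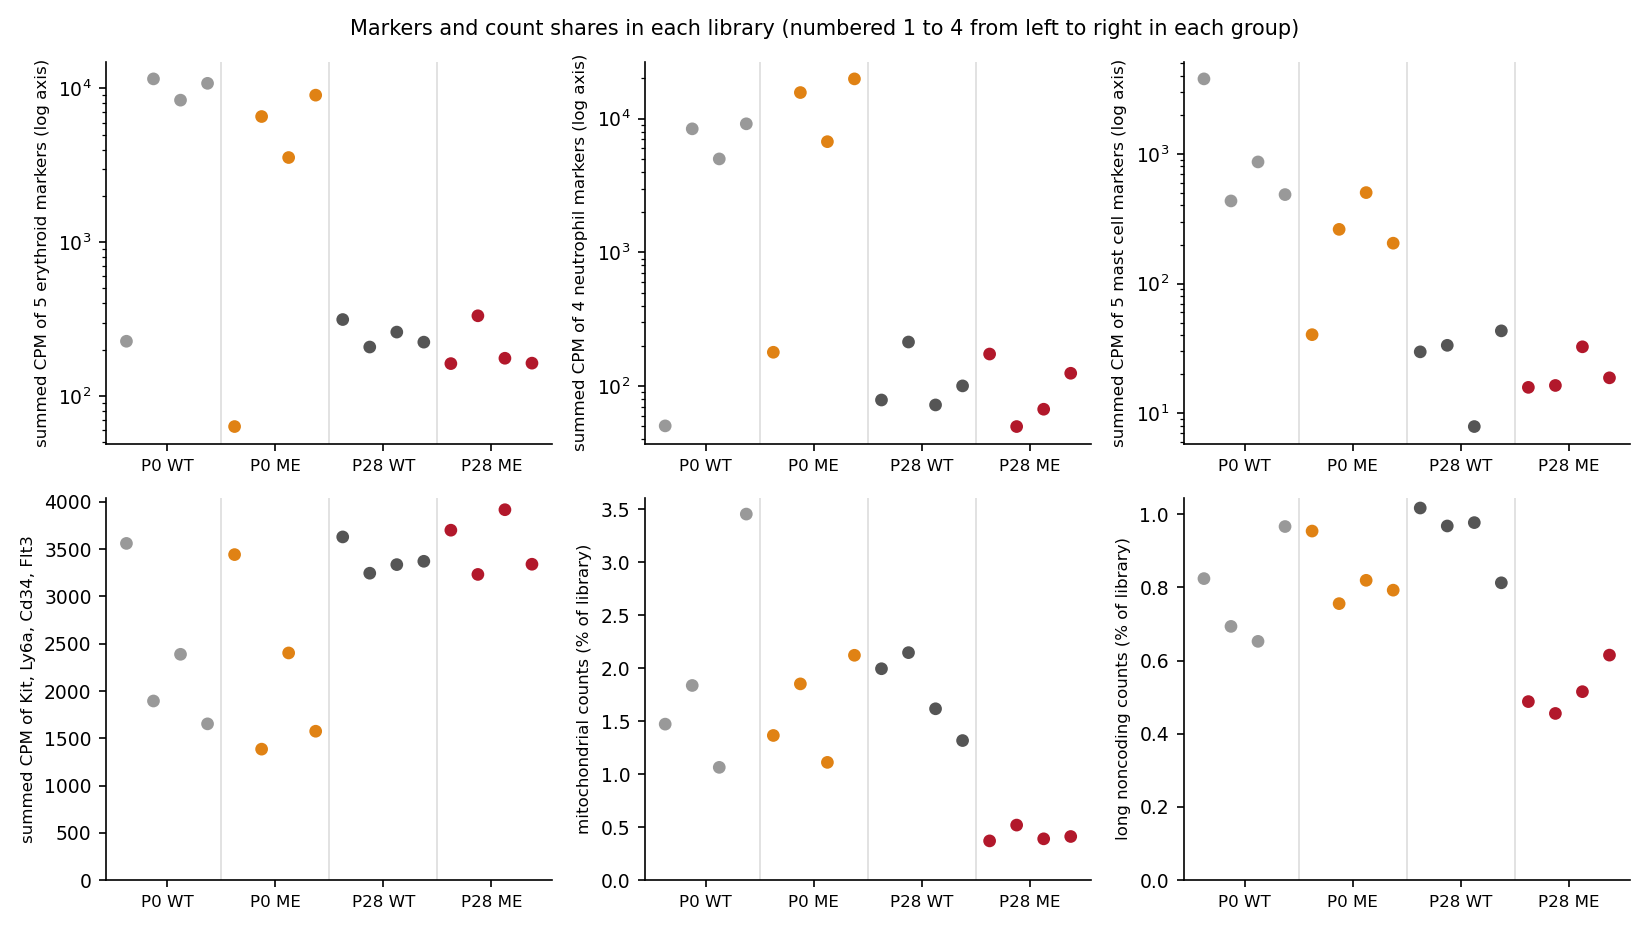
Marker sums in CPM (log axis for the erythroid, neutrophil and mast cell panels) and shares of counts in each of the 16 libraries, ordered 1 to 4 within each group from left to right. In both P0 groups the library numbered 1 lies far below the others in erythroid and neutrophil markers, and the 4 P28 ME libraries have the lowest mitochondrial shares (0.371% to 0.520%).

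At adjusted p under 0.05 (edgeR quasi-likelihood test, Benjamini-Hochberg over 23059 genes, which is what "called" means here), 166 genes (0.72%) had an interaction. The fusion effect was higher at P28 for 108 of them (0.468% of genes tested) and lower at P28 for 58 (0.252%). At an unadjusted p under 0.05 the number was 3815. The effect of the fusion itself was called for 148 genes at P0 (0.642%) and for 2827 genes at P28 (12.3%). Leaving out P0 WT library 1 raised the P0 number to 575, and the P28 number was 1163 and 893 without P28 WT library 1 and 2 and 1641, 1569 and 1552 without P28 ME library 1, 2 and 3. Both numbers rest on 1 spread per gene shared by all groups, although the P0 libraries varied more, so neither reflects the spread at its own age. With limma voom and quality weights by group, 13 genes were called at P0 and 6284 at P28. In the edgeR fit, the median log2 value over all genes tested was -0.01 at P0, -0.10 at P28 and -0.04 for the interaction.

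The 166 genes fell into classes by where the fusion effect itself was called. In 134 it was called at P28 only, 96 of them with a positive and 38 with a negative interaction. In 16 it was called at P0 only, 3 positive and 13 negative. Ttc27 was the only gene called at both ages with opposite signs, Postn and Baz2b were called at both ages with the same sign, and 13 genes were called at neither age. A call at a single age describes where a threshold was passed, whereas the test of the difference is the interaction.

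The positive and negative genes differed in kind. All 108 positive genes were protein coding, and 105 of them had a mean log2 CPM of at least 3. Their median log2 change was -0.33 at P0 and 0.88 at P28. Of the 58 negative genes 29 were protein coding (50% against 67.35% of genes tested), and 30 had a mean log2 CPM of at least 3. Their median change was 0.91 at P0 and -1.75 at P28. The P0 and P28 values had opposite signs in 101 of the positive and 50 of the negative genes, against 41.91% of genes tested, and a choice of genes by this difference itself favours opposite signs. In terms of age, the positive genes had a median P28-minus-P0 change of -0.37 in WT and 0.90 in ME, and the negative genes one of 0.79 in WT and -1.81 in ME.

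**Figure D2:**
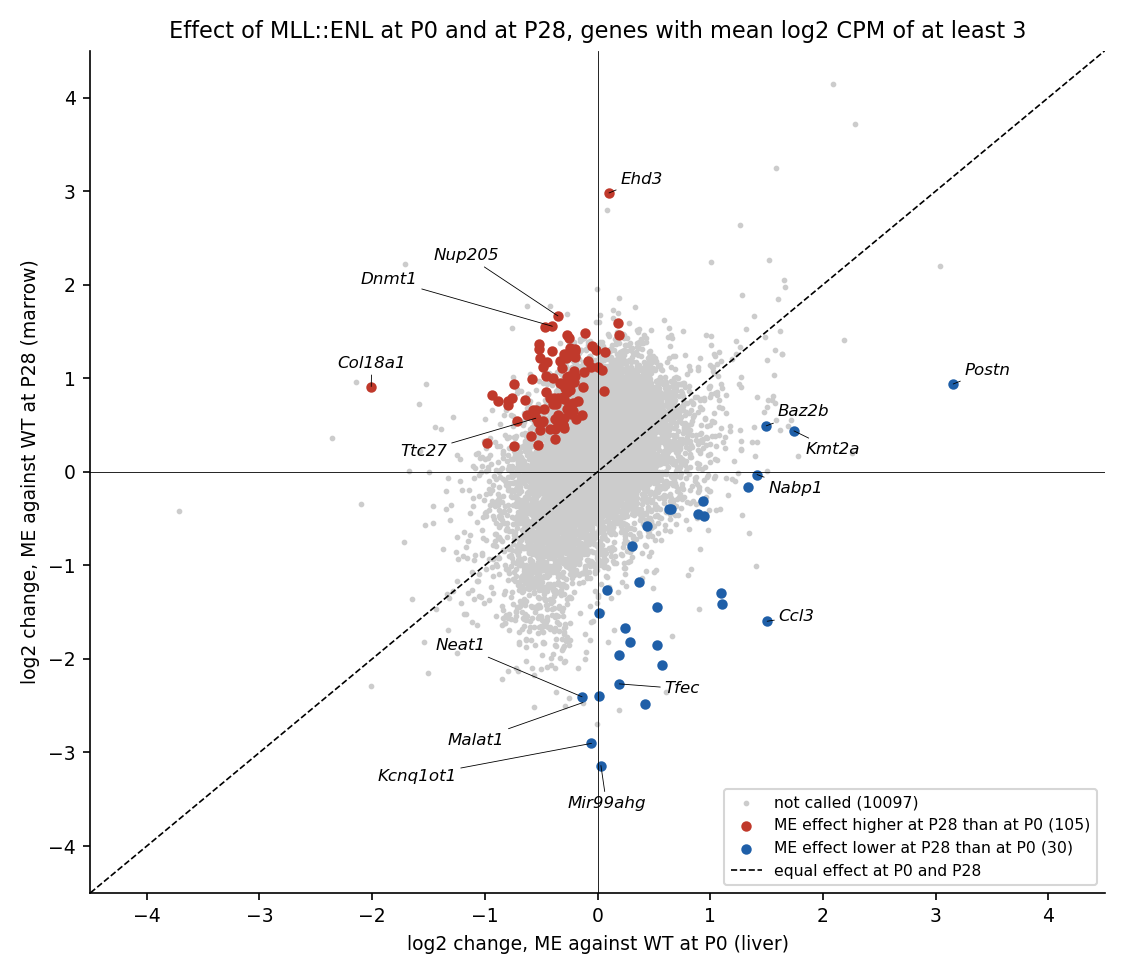
Log2 change of ME against WT at P0 (horizontal axis) and at P28 (vertical axis) for 10232 genes whose mean log2 CPM reached 3, with called interactions in red (105 genes, effect higher at P28) and blue (30 genes, effect lower at P28). The red genes lie mostly in the upper left quadrant and the blue genes mostly below the horizontal axis or to the right, away from the dashed line of equal effects.

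The number of called genes was unstable and its split depended on scaling, so sizes carry more weight below than counts. The same model on the 16 libraries alone called 41 genes, of which 39 were among the 166. With RLE size factors 86 genes were called, 43.02% of them positive against 65.06% with TMM, and with plain library totals 73, of which 10.96% were positive. The median interaction of all genes moved to -0.13 with RLE and -0.24 with plain totals, so each value below is relative to a centre that can shift by that much. Leaving out P0 WT library 4 raised the count to 1653. Leaving out P0 WT library 1, 2 or 3 gave 301, 45 and 42 calls, and leaving out P0 ME library 2 or 4 gave 62 and 41. Without P28 WT library 1, 2, 3 or 4 there were 27, 27, 59 and 91 calls, and without P28 ME library 1, 2 or 3 there were 11, 12 and 55. The fit with the P0 libraries numbered 1 as the sole P0 libraries, an alternative chosen after seeing the data, had 1 library per P0 group. It holds no spread between P0 libraries, so only effect sizes from it are used in these Results. Some of its counts of calls are listed with the other alternatives at the end, and they are no test. Without both P0 libraries numbered 1, 232 genes were called, 119 of them among the 166.

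Of 62 genes chosen for description by library, 41 had a called interaction, and each of the 41 kept its direction in every alternative and in each fit without 1 library. A choice by a call in these same libraries favours a kept direction, so this is no test of stability. Their calls did not all hold. Kcnq1ot1, Mir99ahg, Ttc27, Ehd3, Dusp6 and Shmt1 were called whichever of the 16 libraries was left out. The other 35 lost their call without P28 ME library 1, and 34 of the 41 lost it without P28 ME library 2. All 41 were called without P0 WT library 4, and 34 without both P0 libraries numbered 1, where Bub1, Mthfd1, Nup205, Mirt1, Dnmt1, Uhrf1 and Mcm6 lost their call. With the P0 libraries numbered 1 alone, Gem, Kmt2a and Tfec were the 3 whose value moved by over 1.5 times. None of the 41 moved by that much in the other pair of fits. List members named below beyond the 62, such as Timeless or Gart, are not covered by these counts.

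Ttc27 (chr17:74717732-74863570, GRCm38, plus strand), a tetratricopeptide repeat protein gene, was the clearest case of an effect in opposite directions. Its expression was 49.6, 42.8, 57.5 and 54.9 CPM in P0 WT against 33.9, 35.0, 32.9 and 38.3 CPM in P0 ME. At P28 expression was 46.4, 50.9, 41.4 and 43.0 CPM in WT and 68.8, 72.8, 64.6 and 63.9 CPM in ME. The ME libraries lay below the WT libraries at P0 and above them at P28, with no overlap at either age. The log2 change was -0.55 at P0 (SE 0.13, edgeR adjusted p = 0.0418) and 0.57 at P28 (SE 0.13, edgeR adjusted p = 0.00656). The interaction was 1.12 (SE 0.18, edgeR adjusted p = 0.00524), and 1.13 with the P0 libraries numbered 1 alone.

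Shmt1, which makes the cytosolic serine hydroxymethyltransferase of folate metabolism, had the same shape and was picked out after its values were seen. It was at 101, 89.5, 125 and 89.7 CPM in P0 WT against 48.1, 69.9, 66.9 and 54.1 CPM in P0 ME. At P28 the values were 71.8, 75.9, 75.9 and 86.4 CPM in WT and 145, 157, 127 and 107 CPM in ME. The groups did not overlap at either age, but the P0 change missed the threshold (-0.76, SE 0.19, edgeR adjusted p = 0.0557). The P28 change was 0.79 (SE 0.19, edgeR adjusted p = 0.00878) and the interaction 1.55 (SE 0.27, edgeR adjusted p = 0.00922).

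Genes of DNA replication and mitosis formed the largest described group with a higher effect at P28. All 20 members of a cell cycle list had an interaction above 0, with a median of 1.03 against -0.04 over all genes tested. Ccnb2, Mcm5, Bub1 and Mcm6 were called, 4 of 20 against a background of 0.468%. At P28, 14 members rose in ME against WT (7.82% of all genes tested rose at that age), and at P0 none was called, where the median change was -0.22 against 0.88 at P28. The median interaction was 1.08 without both P0 libraries numbered 1, 0.95 with them as the sole P0 libraries and 1.07 without P0 WT library 4. The promoter windows of the 4 called genes are shown because E2F sites, CCAAT boxes and the cell cycle homology region (CHR) are the known elements through which replication and mitosis genes are switched together. Each window is the 250 bases before the RefSeq start (GRCm38.p6) on the strand of the gene, and capitals mark matches to the E2F octamers TTTGGCGC, TTTCGCGC and TTTCCCGC, to CCAAT and to the CHR hexamer TTTGAA on either strand, with touching matches run together.
Ccnb2 (chr9:70421555-70421804, minus strand): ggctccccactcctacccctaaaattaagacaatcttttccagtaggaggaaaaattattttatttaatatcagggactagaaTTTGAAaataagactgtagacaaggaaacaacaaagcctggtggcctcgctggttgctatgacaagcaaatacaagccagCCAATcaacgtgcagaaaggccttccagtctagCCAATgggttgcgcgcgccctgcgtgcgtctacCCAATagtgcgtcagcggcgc
Mcm5 (chr8:75109259-75109508, plus strand): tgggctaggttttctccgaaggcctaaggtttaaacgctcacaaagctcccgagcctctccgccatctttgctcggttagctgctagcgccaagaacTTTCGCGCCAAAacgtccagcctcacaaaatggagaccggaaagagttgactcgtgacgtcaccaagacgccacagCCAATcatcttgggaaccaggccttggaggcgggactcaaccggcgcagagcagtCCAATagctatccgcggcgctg
Bub1 (chr2:127831860-127832109, minus strand): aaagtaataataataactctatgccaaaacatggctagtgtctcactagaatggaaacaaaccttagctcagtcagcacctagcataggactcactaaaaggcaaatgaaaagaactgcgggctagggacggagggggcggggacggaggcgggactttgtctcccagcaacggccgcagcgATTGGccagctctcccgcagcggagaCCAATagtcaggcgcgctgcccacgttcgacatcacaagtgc
Mcm6 (chr1:128359706-128359955, minus strand): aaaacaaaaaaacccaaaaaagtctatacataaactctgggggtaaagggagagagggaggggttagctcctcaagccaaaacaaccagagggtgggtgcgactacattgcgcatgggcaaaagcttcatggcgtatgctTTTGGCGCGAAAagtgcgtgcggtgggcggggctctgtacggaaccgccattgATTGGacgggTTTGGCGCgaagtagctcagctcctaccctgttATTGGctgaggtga
The windows of Mcm5 and Mcm6 held E2F octamers, which in Mcm5 were a pair of opposite-strand matches overlapping in bases -149 to -146 from the start and in Mcm6 a like pair at -110 to -99 plus a further match at -47 to -40. Those of Ccnb2 and Bub1 held none. Each of the 4 windows held CCAAT boxes, 3 in Ccnb2 and 2 each in Mcm5, Bub1 and Mcm6. That of Ccnb2 also held 1 CHR hexamer, at -167 to -162.

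Over all 32851 RefSeq windows of this length, 1.534% held an E2F octamer, 33.85% CCAAT and 15.987% the CHR hexamer. For the 108 positive genes, 89 had at least 1 window, and of their 107 windows 10.28% held an E2F octamer, 49.533% CCAAT and 12.15% CHR. Among windows of all genes tested these shares were 2.519%, 34.855% and 11.592%. For the 58 negative genes, 37 had a window, and of 43 windows 0 held an E2F octamer, 39.535% CCAAT and 18.605% CHR. A match is a description of the letters, no binding was measured, and a window without a match says only that these letters are not in it.

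Mcm5 and Mcm6 encode subunits of the MCM helicase that unwinds DNA at the fork. Mcm5 was at 249, 365, 474 and 211 CPM in P0 WT against 197, 256, 279 and 258 CPM in P0 ME, and at 239, 262, 300.4 and 271 CPM in P28 WT and 578, 616, 522 and 427 CPM in P28 ME. Only the P28 groups were separate. The P0 change was -0.39 (SE 0.21, edgeR adjusted p = 0.409), the P28 change 1.00 (SE 0.21, edgeR adjusted p = 0.00483) and the interaction 1.39 (SE 0.30, edgeR adjusted p = 0.0314). Mcm6 was at 719, 721, 721 and 348 CPM in P0 WT against 508, 556, 605 and 472 CPM in P0 ME, and at 544, 634, 651 and 668 CPM in P28 WT and 1349.5, 1327, 1207 and 962 CPM in P28 ME. Its low P0 WT value came from library 4, and its interaction of 1.19 (SE 0.29, edgeR adjusted p = 0.0468) was 1.42 without that library (edgeR adjusted p = 0.00301). With single libraries left out, the call of Mcm6 held in 3 of 16 fits and that of Mcm5 in 6 of 16.

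Ccnb2, the gene for the mitotic cyclin B2, was at 202, 206, 193 and 193 CPM in P0 WT against 138, 166, 169.8 and 137 CPM in P0 ME. The P28 values were 141, 133, 151 and 117 CPM in WT and 215, 217, 189.7 and 179 CPM in ME, so the ME libraries were below WT at P0 and above WT at P28. The P0 change of -0.38 (SE 0.13) was not called (edgeR adjusted p = 0.192), whereas the P28 change was 0.57 (SE 0.14, edgeR adjusted p = 0.00876) and the interaction 0.95 (SE 0.19, edgeR adjusted p = 0.025). Bub1, a spindle checkpoint kinase, ranged from 61.4 to 111 CPM in P0 WT, 48.6 to 90.0 in P0 ME, 38.9 to 55.0 in P28 WT and 81.5 to 111 in P28 ME. It was separate between genotypes at P28 only, with an interaction of 1.29 (SE 0.29, edgeR adjusted p = 0.0407). The proliferation marker Mki67 had an interaction of 1.29 that missed the threshold (edgeR adjusted p = 0.0508).

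Without single libraries the count of called cell cycle genes moved from 4 to between 0 and 11. It was 11 without P0 WT library 4, 7 without P0 ME library 3 and 6 without P0 WT library 1. It was 2 without P0 WT library 3 or P28 WT library 3, and 1 without P0 ME library 1 or 2 or P28 ME library 3. It was 0 without P0 ME library 4, P0 WT library 2, or library 1 or 2 of either P28 group. The median interaction of the list stayed between 0.84 and 1.14 over all alternatives and left-out libraries. Erythroid markers summed to 208 to 314 CPM in P28 WT and 162 to 332 CPM in P28 ME. At P0 they were uneven, at 227 to 11534 CPM in WT and 63.2 to 9039 CPM in ME. The part of erythroid RNA in the result was not tested.

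**Figure D3:**
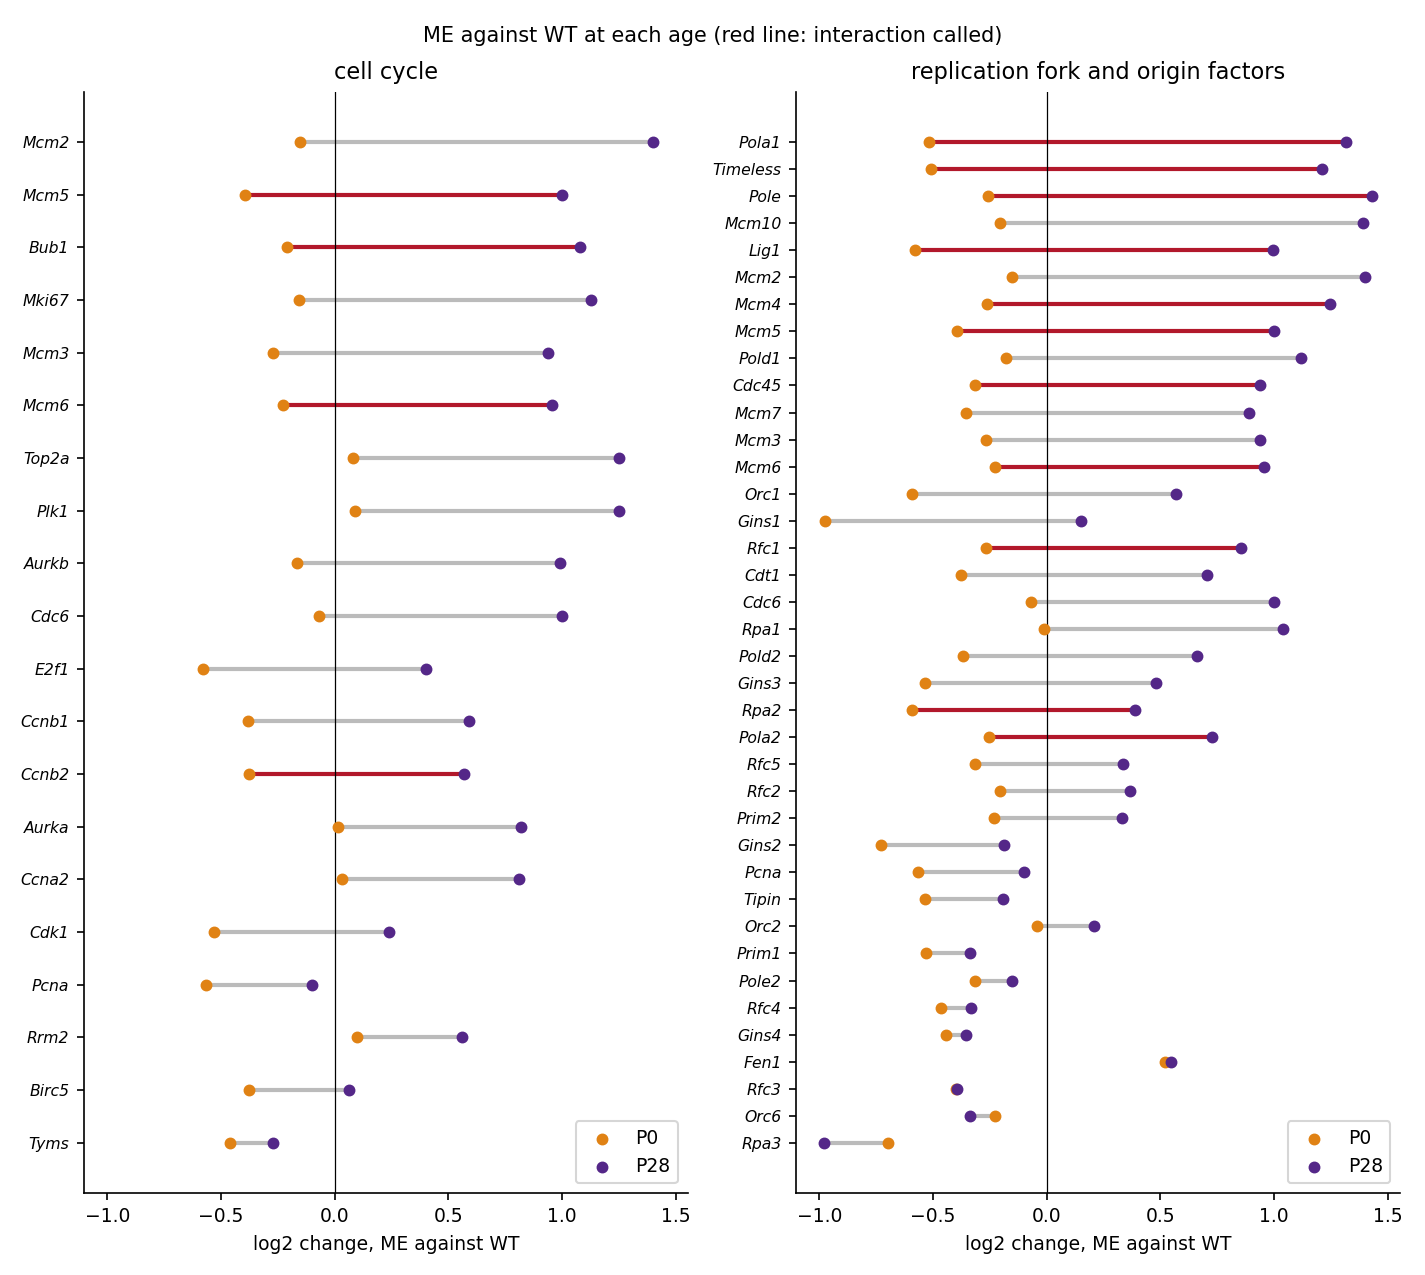
Log2 change of ME against WT at P0 (orange) and P28 (purple) for the 20 cell cycle genes and the 38 replication genes, joined by a line that is red where the interaction was called. The P28 value lies to the right of the P0 value for 20 of 20 cell cycle and 36 of 38 replication genes, and most P0 values lie left of 0.

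A longer list of 38 factors of the replication fork and of origins was assembled after the values were seen, so its counts are descriptions. Of its members 36 had an interaction above 0, the median was 1.04, and 11 were called with a positive interaction, against a background of 0.468%. Pola1, the catalytic subunit of DNA polymerase alpha, had the largest value, 1.83 (SE 0.34, edgeR adjusted p = 0.017). It was at 80.2, 91.5, 94.3 and 51.6 CPM in P0 WT, then 50.4, 47.8, 81.4 and 42.4 CPM in P0 ME, 59.3, 64.1, 69.8 and 66.0 CPM in P28 WT, and 190.1, 194, 134 and 128 CPM in P28 ME. The P28 ME libraries thus stood above all 12 others. The helicase subunit gene Mcm4 (interaction 1.51), the DNA ligase gene Lig1 (1.57), the fork protein gene Timeless (1.72) and the polymerase epsilon gene Pole (1.69) were also called. At the other end of the list, Rfc3 of the clamp loader had an interaction of 0.0017, Gins4 of the helicase of 0.09 and Rpa3 of -0.28. Rpa2, a subunit of the single-strand binding complex, was called for the interaction (0.98, SE 0.23, edgeR adjusted p = 0.0414) with neither the P0 change of -0.59 nor the P28 change of 0.39 being called. The number called was 21 without P0 WT library 4. It was 7 without P28 WT library 3, 5 without P0 ME library 1, 4 without P28 WT library 4 and 3 without P0 ME library 4. It was 2 without P28 ME library 3, P0 ME library 2 or P0 WT library 2 or 3, 1 without P28 WT library 1 or 2, and 0 without P28 ME library 1 or 2. It was 10 without the P0 libraries numbered 1 (median 1.08), and with them alone the median was 0.96. Over all settings the median ran from 0.84 with plain library totals to 1.12 without P28 ME library 4.

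Brca1 and Aunip, both genes of the response to broken DNA or of spindle function, were among the 8 largest positive interactions of called genes whose mean log2 CPM reached 3. Brca1 was at 25.3, 38.5, 42.3 and 30.8 CPM in P0 WT against 21.7, 13.2, 37.7 and 26.5 CPM in P0 ME. The P28 values were 22.6, 25.7, 28.1 and 27.1 CPM in WT and 86.8, 90.8, 69.6 and 54.7 CPM in ME, again with the P28 ME libraries above all others. Its interaction was 2.01 (SE 0.43, edgeR adjusted p = 0.0306). Aunip, which encodes a partner of Aurora kinase A, ranged from 14.7 to 33.9 CPM in P0 WT, 9.70 to 19.5 in P0 ME, 11.6 to 16.0 in P28 WT and 17.1 to 32.5 in P28 ME, and had an interaction of 1.76 (SE 0.37, edgeR adjusted p = 0.0302).

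Genes that copy DNA methylation and build heterochromatin were a further group. In a list of 19 of them, also assembled after the values were seen, 18 had an interaction above 0, the median was 1.10 and 8 were called against a background of 0.468% (Cdca7, Suv39h1, Smchd1, Suv39h2, Hells, Cbx5, Dnmt1 and Uhrf1). Dnmt1, the maintenance DNA methyltransferase, was at 234, 238, 339.9 and 109 CPM in P0 WT against 179, 117, 304 and 97.5 CPM in P0 ME. At P28, Dnmt1 was at 188, 153, 235 and 237 CPM in WT and 675, 676, 615 and 426 CPM in ME. The P28 ME libraries lay above all 12 others, and the P0 groups overlapped. The P28 change was 1.56 (SE 0.33, edgeR adjusted p = 0.00524) and the interaction 1.96 (SE 0.46, edgeR adjusted p = 0.0445), which was called in 4 of the 16 fits without 1 library.

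Uhrf1, which brings DNMT1 to newly copied DNA, ranged from 143 to 298 CPM in P0 WT, 142 to 217 in P0 ME, 136 to 176 in P28 WT and 281 to 427 in P28 ME (interaction 1.56, SE 0.37, edgeR adjusted p = 0.0449). Cdca7, a partner of the remodeller HELLS, separated the genotypes at both ages in opposite directions. It ranged from 280.5 to 346 CPM in P0 WT against 214 to 238 CPM in P0 ME, but from 268 to 338 CPM in P28 WT and from 441 to 514 CPM in P28 ME. Its interaction was 1.14 (SE 0.21, edgeR adjusted p = 0.017), with a P0 change of -0.47 that was not called (edgeR adjusted p = 0.142). Suv39h2, a histone methyltransferase of heterochromatin, had an interaction of 1.64 (SE 0.37, edgeR adjusted p = 0.0407) while the genotypes overlapped at both ages. The de novo methyltransferases Dnmt3a and Dnmt3b had interactions of 0.36 and 1.38 and were not called, and Tet1, Tet2 and Tet3, which oxidise methylated cytosine, had values of 0.14, -0.22 and 0.30. The number called was 12 without P0 WT library 4 and 8 without P28 ME library 4, P0 ME library 3 or P0 WT library 1. It was 3 without P0 ME library 1, P28 WT library 4 or P28 ME library 3, and 2 without P0 ME library 2, P0 WT library 3 or P28 WT library 3. It was 1 without P0 ME library 4, P0 WT library 2 or P28 WT library 2, and 0 without P28 WT library 1 or P28 ME library 1 or 2. It was 5 without the P0 libraries numbered 1 (median 1.16), and with them alone the median was 0.88. Over all settings the median stayed between 0.88 and 1.17.

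Enzymes of folate, serine and purine synthesis, which supply nucleotides, formed a further group listed after the values were seen. The list also held Ahcy, an enzyme of the methionine cycle. All 22 had an interaction above 0, the median was 0.79, and 7 were called against a background of 0.468%, namely Shmt1, Mthfd1l, Gart, Paics, Phgdh, Mthfd1 and Ahcy. Mthfd1, a folate interconversion enzyme, ranged from 61.0 to 137 CPM in P0 WT, 62.5 to 109.7 in P0 ME, 91.7 to 108 in P28 WT and 204 to 288 in P28 ME (interaction 1.58, SE 0.36, edgeR adjusted p = 0.0414). In Paics and Phgdh, the first an enzyme of purine and the second of serine synthesis, the difference came from both ages. Paics was at 697, 731, 547 and 620.2 CPM in P0 WT, then 493, 409, 489 and 411 CPM in P0 ME, 461, 578, 467 and 483 CPM in P28 WT, and 603, 628, 600.2 and 599 CPM in P28 ME. The genotypes did not overlap at either age, with ME lower at P0 and higher at P28, yet neither the change of -0.53 (edgeR adjusted p = 0.0557) nor that of 0.29 (edgeR adjusted p = 0.147) was called. The interaction was 0.82 (SE 0.18, edgeR adjusted p = 0.0402). Phgdh had an interaction of 1.26 (SE 0.29, edgeR adjusted p = 0.0407), with P0 and P28 changes of -0.71 and 0.55. The number called was 11 without P0 WT library 1 or 4. It was 4 without P0 ME library 1 or P28 WT library 4, 3 without P28 WT library 3, 2 without P0 WT library 3, and 1 without P0 ME library 2 or 4, P0 WT library 2, P28 WT library 1 or 2, or P28 ME library 1, 2 or 3. Without the P0 libraries numbered 1 it was 7 (median 0.82), and with them alone the median was 0.81. Over all settings the median ran from 0.59 with plain library totals to 0.88 without P28 ME library 1.

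Nucleoporins, the proteins of the nuclear pore that carry traffic into and out of the nucleus, were a further group with a higher effect at P28. Of 28 tested (29 listed after the values were seen) 27 had an interaction above 0, the median was 0.89, and Nup93, Nup50, Nup85, Ndc1 and Nup205 were called, 5 of 28 against a background of 0.468%. At P28 the fusion effect of 19 was called as a rise (7.82% of all genes tested), and at P0 none was called in either direction (median -0.05). Nup93, of the inner ring of the pore, was at 74.9, 82.2, 83.5 and 75.8 CPM in P0 WT against 75.5, 69.0, 83.7 and 84.2 CPM in P0 ME, then at 48.7, 56.2, 59.4 and 58.9 CPM in P28 WT and 157, 164, 121 and 108 CPM in P28 ME. The P0 groups covered the same range and the P28 groups were separate, with changes of -0.02 at P0 and 1.30 at P28 and an interaction of 1.32 (SE 0.24, edgeR adjusted p = 0.017). Nup205, also of the inner ring, had an interaction of 2.02 (SE 0.46, edgeR adjusted p = 0.0414) and ranged from 29.6 to 113 CPM at P0, 48.9 to 79.7 in P28 WT and 155 to 253 in P28 ME. Nup50, a factor of nuclear import, had changes of 0.04 at P0 and 1.09 at P28 (interaction 1.06, SE 0.21, edgeR adjusted p = 0.0224). The number of called nucleoporins was 18 without P0 WT library 4. It was 2 without P0 ME library 2, P0 WT library 3 or P28 WT library 3, 1 without P0 ME library 4, P0 WT library 2 or P28 WT library 1 or 2, and 0 without P28 ME library 1 or 2. Leaving out the P0 libraries numbered 1 gave 4 (median 0.89), and with them alone the median was 0.76. Over all settings the median stayed between 0.68 and 0.97.

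Ehd3, Dusp6, Gem and Slc25a25 also had a higher effect at P28 but belong to none of these groups. Ehd3 (chr17:73804134-73832094), which encodes an ATPase of endosome recycling, was at 9.58, 9.63, 10.46 and 2.71 CPM in P0 WT against 11.9, 5.59, 7.75 and 9.53 CPM in P0 ME. At P28 it was at 3.10, 5.24, 5.11 and 4.18 CPM in WT and 36.8, 32.5, 41.8 and 28.1 CPM in ME, so the P28 ME libraries lay far above the other 12. The change was 0.10 at P0 (SE 0.34, edgeR adjusted p = 0.932) and 2.98 at P28 (SE 0.36, edgeR adjusted p = 4.82e-05), and the interaction was 2.88 (SE 0.49, edgeR adjusted p = 0.00841).

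Dusp6, a phosphatase that is induced by and switches off ERK signalling, had the smallest interaction p of the 62 genes and was picked out after its values were seen. Its values were 188, 158, 125 and 171 CPM in P0 WT against 94.8, 133, 95.7 and 134 CPM in P0 ME, then 79.2, 97.6, 75.6 and 74.8 CPM in P28 WT and 208, 182, 166 and 152 CPM in P28 ME. In WT it was lower in marrow at P28 than in liver at P0, and the P28 ME libraries, at 152 to 208 CPM, overlapped P0 WT. The changes were -0.49 at P0 (SE 0.16, edgeR adjusted p = 0.153) and 1.11 at P28 (SE 0.16, edgeR adjusted p = 0.000311), and the interaction was 1.60 (SE 0.22, edgeR adjusted p = 0.00141). It was 2.11 with the P0 libraries numbered 1 alone and 1.44 without them (edgeR adjusted p = 0.00288).

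Gem, a small GTPase, ranged from 101 to 159 CPM in P0 WT, 109.9 to 169 in P0 ME, 60.8 to 83.4 in P28 WT and 148 to 197 in P28 ME, with an interaction of 1.21 (SE 0.23, edgeR adjusted p = 0.017). With the P0 libraries numbered 1 alone it was 0.57. Slc25a25, a mitochondrial carrier of ATP and phosphate, ranged from 12.2 to 28.4 CPM in P0 WT, 9.13 to 15.5 in P0 ME, 7.52 to 12.4 in P28 WT and 21.1 to 23.9 in P28 ME, with an interaction of 1.89 (SE 0.39, edgeR adjusted p = 0.0279). Col18a1, the gene for collagen XVIII, had the largest positive interaction of the called genes whose mean log2 CPM reached 3, with a fall at P0. It was at 132, 58.5, 98.6 and 44.3 CPM in P0 WT against 27.9, 13.0, 36.4 and 5.65 CPM in P0 ME, whereas at P28 all 8 libraries lay between 2.66 and 10.8 CPM. The P0 change was -2.01 (SE 0.46, edgeR adjusted p = 0.0363), the P28 change 0.91 (SE 0.45, edgeR adjusted p = 0.196) and the interaction 2.92 (SE 0.64, edgeR adjusted p = 0.036).

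**Figure D4:**
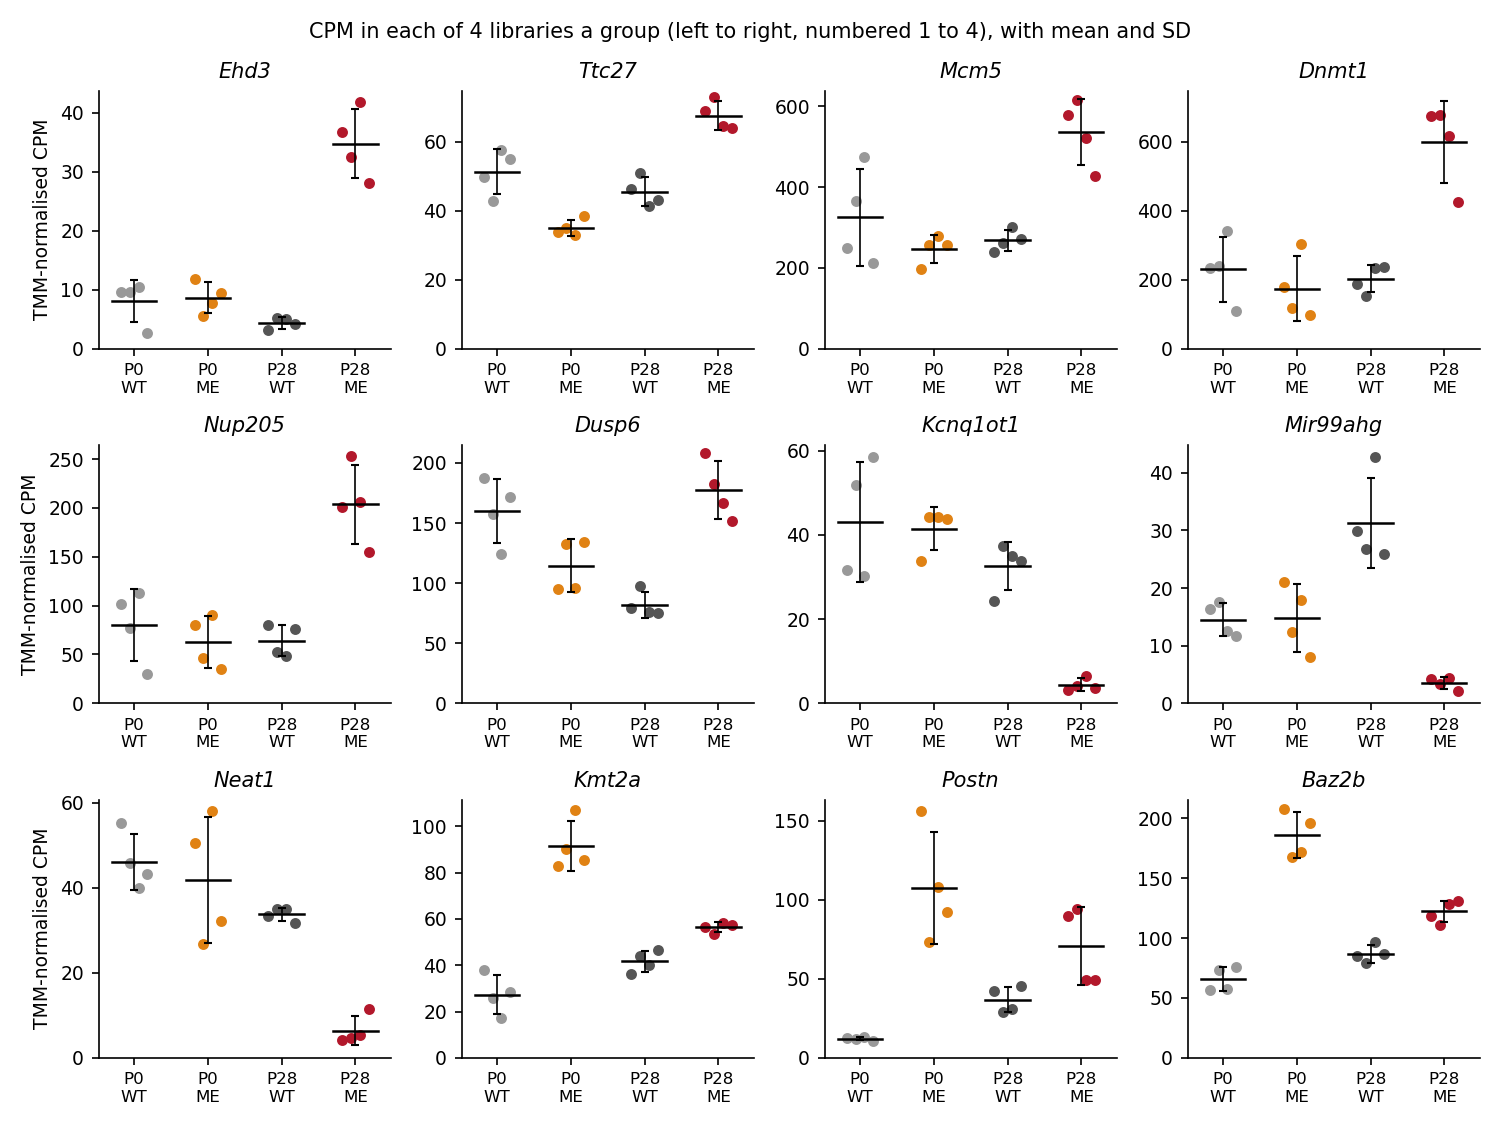
TMM-normalised CPM of 12 genes in each of the 16 libraries (points, ordered 1 to 4 within a group), with the group mean (bar) and SD (whisker). The P28 ME libraries stand apart from all others in Ehd3, Dnmt1, Nup205, Kcnq1ot1, Mir99ahg and Neat1, the genotypes change order between ages in Ttc27, and P0 ME is the highest group in Kmt2a and Baz2b.

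Among the 8 largest negative interactions of called genes whose mean log2 CPM reached 3, with predicted gene models left out, 5 were those of long noncoding RNAs, some of which are known to stay in the nucleus. Mir99ahg (chr16:77236317-77773427), the host transcript of a microRNA cluster, was at 16.4, 17.6, 12.5 and 11.6 CPM in P0 WT against 21.1, 12.3, 18.0 and 7.95 CPM in P0 ME. At P28, Mir99ahg was at 29.9, 26.8, 42.8 and 25.9 CPM in WT and 4.25, 3.35, 4.46 and 2.15 CPM in ME. The P0 groups overlapped and the P28 ME libraries were the lowest of the 16. The changes were 0.03 at P0 (SE 0.34) and -3.14 at P28 (SE 0.37, edgeR adjusted p = 2.46e-05), and the interaction was -3.17 (SE 0.49, edgeR adjusted p = 0.0025).

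Kcnq1ot1 (chr7:143203458-143296549, minus strand), an imprinted RNA that silences its neighbours, was at 31.7, 51.9, 30.2 and 58.6 CPM in P0 WT against 33.7, 44.3, 44.3 and 43.7 CPM in P0 ME. At P28 the level was 24.3, 37.4, 35.1 and 33.7 CPM in WT and 3.11, 4.18, 6.55 and 3.57 CPM in ME. Its interaction was -2.85 (SE 0.42, edgeR adjusted p = 0.00155), with changes of -0.05 at P0 and -2.90 at P28 (SE 0.31, edgeR adjusted p = 6.17e-06). Kcnq1ot1 overlaps Kcnq1 on the other strand, and since the strand setting of the counting is not given in the sources used here, reads of such a pair cannot be told apart.

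Neat1, the scaffold of nuclear paraspeckles, was at 55.3, 45.8, 40.0 and 43.3 CPM in P0 WT, then 50.6, 26.8, 58.1 and 32.1 CPM in P0 ME, 33.3, 35.0, 35.0 and 31.8 CPM in P28 WT, and 4.09, 4.65, 5.41 and 11.4 CPM in P28 ME. The P28 ME libraries were again below all others, and the interaction was -2.27 (SE 0.44, edgeR adjusted p = 0.0224). Malat1, an abundant RNA of nuclear speckles picked out after its values were seen, ranged from 275 to 1551 CPM in P0 WT, 461 to 785 in P0 ME, 367 to 764 in P28 WT and 75.2 to 146 in P28 ME. Its P28 change was -2.47 (SE 0.49, edgeR adjusted p = 0.00446) and its interaction of -2.34 (SE 0.67) was not called (edgeR adjusted p = 0.0926). Without P0 WT library 4, the highest of its group, it was -3.13 and called (edgeR adjusted p = 0.00479). Of 8 such RNAs tested, in a list of 9 assembled after the values were seen, 2 had an interaction above 0 (the highest 0.91). With a negative interaction 3 were called, against a background of 0.252%. That number was 4 without P0 WT library 4, 2 without P28 ME library 1 or 2, and 3 without both P0 libraries numbered 1. The median was -2.30, or -2.60 to -2.15 over the alternatives and left-out libraries.

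Shares of whole RNA classes moved with these RNAs. Long noncoding genes took 0.456% to 0.615% of counts in P28 ME, 0.813% to 1.02% in P28 WT and 0.653% to 0.966% at P0. Mitochondrial genes took 0.371% to 0.520% in P28 ME, 1.32% to 2.15% in P28 WT and 1.07% to 3.46% at P0. The P28 ME libraries were below all 12 others in both shares, and the part of these shares in the gene results was not tested.

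Ino80dos, a long noncoding RNA that overlaps other genes, ranged from 4.28 to 20.8 CPM in P0 WT, 20.6 to 25.5 in P0 ME, 12.8 to 17.7 in P28 WT and 2.82 to 4.87 in P28 ME (interaction -2.63, SE 0.53, edgeR adjusted p = 0.0247). Mirt1, another long noncoding RNA, had an interaction of -2.52 (SE 0.59, edgeR adjusted p = 0.0427), which was called in 4 of the 16 fits without 1 library. Ccl3, an inflammatory chemokine, was at 8.25, 1.77, 2.50 and 5.81 CPM in P0 WT against 18.0, 8.38, 7.77 and 17.8 CPM in P0 ME. At P28 it was at 20.9, 25.8, 17.5 and 17.6 CPM in WT and 5.27, 3.03, 7.04 and 11.7 CPM in ME, so the ME libraries overlapped WT at P0, with a higher range, and lay below WT at P28. The interaction was -3.10 (SE 0.62, edgeR adjusted p = 0.0247), with changes of 1.50 at P0 (edgeR adjusted p = 0.114) and -1.60 at P28 (edgeR adjusted p = 0.0186). Tfec, a transcription factor of the MITF family, had an interaction of -2.46 (SE 0.55, edgeR adjusted p = 0.0398), which was -0.25 with the P0 libraries numbered 1 alone and -2.73 without them. In P0 ME it was at 4.22 CPM in library 1 and 23.8 to 35.0 CPM in the others.

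Genes with an effect at P0 that was smaller or not called at P28 included Kmt2a (chr9:44803355-44881296, minus strand), the mouse counterpart of the fusion's MLL part. It was at 38.1, 25.8, 17.1 and 28.3 CPM in P0 WT against 82.8, 90.2, 107 and 85.7 CPM in P0 ME, then at 36.2, 44.1, 39.9 and 46.4 CPM in P28 WT and 56.5, 53.4, 58.4 and 57.3 CPM in P28 ME. ME was above WT without overlap at both ages, by 1.74 at P0 (SE 0.18, edgeR adjusted p = 4.16e-06) and by 0.44 at P28 (SE 0.17, edgeR adjusted p = 0.0975). The interaction was -1.31 (SE 0.24, edgeR adjusted p = 0.017), and -0.68 with the P0 libraries numbered 1 alone. Whether reads of the human transgene were assigned to Kmt2a was not tested. Mllt1, the counterpart of the ENL part, had changes of -0.03 at P0 and 0.90 at P28 and an interaction of 0.93 (SE 0.37, edgeR adjusted p = 0.207), which was 1.24 and called without P0 WT library 4 (edgeR adjusted p = 0.0112). It was at 71.2, 58.0, 93.2 and 22.7 CPM in P0 WT, then 71.9, 52.7, 70.0 and 46.1 CPM in P0 ME, 71.3, 67.9, 63.0 and 87.7 CPM in P28 WT, and 134, 145, 139.6 and 124 CPM in P28 ME.

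Postn, the gene for the matrix protein periostin, rose in ME at both ages and more at P0. It was at 12.3, 12.0, 13.3 and 10.7 CPM in P0 WT against 156, 73.4, 108 and 92.1 CPM in P0 ME, then at 42.3, 29.2, 30.7 and 45.2 CPM in P28 WT and 89.5, 94.4, 49.0 and 49.4 CPM in P28 ME. The groups were separate at both ages, with changes of 3.16 (SE 0.33) and 0.94 (SE 0.31) and an interaction of -2.22 (SE 0.43, edgeR adjusted p = 0.0224). The WT level itself was 1.61 higher at P28 on the log2 scale and that of ME 0.61 lower (-0.61).

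Baz2b, which encodes a bromodomain protein and was picked out after its values were seen, followed the same pattern. It was at 56.5, 73.5, 57.7 and 75.8 CPM in P0 WT against 208, 168, 172 and 196 CPM in P0 ME, then at 85.0, 79.4, 97.1 and 86.3 CPM in P28 WT and 118, 111, 129 and 131 CPM in P28 ME. The changes were 1.50 at P0 (SE 0.13, edgeR adjusted p = 5.09e-07) and 0.49 at P28 (SE 0.13, edgeR adjusted p = 0.0156), and the interaction was -1.01 (SE 0.18, edgeR adjusted p = 0.017).

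Nabp1, Slc35a5 and Rabgap1l were called at P0 only. Nabp1, a single-strand DNA binding protein gene, ranged from 13.0 to 24.4 CPM in P0 WT against 34.9 to 59.4 in P0 ME, but from 21.0 to 27.6 CPM in all 8 P28 libraries, with changes of 1.42 and -0.03 and an interaction of -1.44 (SE 0.30, edgeR adjusted p = 0.0261). Slc35a5, of a family of nucleotide sugar carriers, separated the genotypes at both ages in opposite directions. It ranged from 24.4 to 31.6 CPM in P0 WT against 40.4 to 80.1 in P0 ME, and from 31.3 to 38.6 CPM in P28 WT and 22.7 to 28.7 in P28 ME (interaction -1.41, SE 0.26, edgeR adjusted p = 0.017). Its P28 change of -0.47 was not called (edgeR adjusted p = 0.0967). Rabgap1l, a regulator of Rab GTPases, had changes of 0.64 at P0 and -0.40 at P28 and an interaction of -1.04 (SE 0.20, edgeR adjusted p = 0.0205), also without overlap at either age.

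Known targets of MLL fusions gave no called interaction. Of 23 tested, none passed in the edgeR fit, the lowest adjusted p was 0.136, for Myc, and 7 had a value above 0 (median -0.32). By themselves 6 rose at P0 and 6 at P28, where 0.364% and 7.82% of all genes tested rose. The median interaction was -0.35 with the P0 libraries numbered 1 alone. It was -0.20 without them and -0.27 without P0 WT library 4, with 1 call in each of these fits. Hoxa9, the central target and picked out after its values were seen, was at 90.3, 72.2, 60.2 and 85.0 CPM in P0 WT, then 233, 125, 129 and 144 CPM in P0 ME, 124, 118, 115 and 134 CPM in P28 WT, and 184, 166, 168 and 195 CPM in P28 ME. The genotypes were separate at both ages, by 1.03 (SE 0.17) and 0.53 (SE 0.17), and the interaction was -0.50 (SE 0.24, edgeR adjusted p = 0.299). Its cofactor Meis1 had changes of 0.54 and -0.0049 and an interaction of -0.55 (SE 0.26, edgeR adjusted p = 0.296). Myc was at 121, 306, 291 and 323 CPM in P0 WT against 171, 256, 196 and 229 CPM in P0 ME, and at 351, 349, 397 and 532 CPM in P28 WT and 608, 555, 642 and 794 CPM in P28 ME, with an interaction of 0.96 (SE 0.32, edgeR adjusted p = 0.136). With the P0 libraries numbered 1 alone it was 0.17, without them 1.11 and called (edgeR adjusted p = 0.0368), and without P0 WT library 1, the lowest of its group, 1.197 and called (edgeR adjusted p = 0.0229).

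Among 16 COMPASS methyltransferases and partners, Kmt2a had a called negative and Psip1 a called positive interaction. Psip1, which tethers the MLL complex to chromatin, ranged from 196 to 248 CPM in P0 WT, 155 to 168 in P0 ME, 204 to 258 in P28 WT and 282 to 327 in P28 ME (interaction 0.88, SE 0.20, edgeR adjusted p = 0.0407). The call of Psip1 held in 3 of the 16 fits without 1 library. Kmt2c, which encodes the MLL3 named in the title, had an interaction of 0.09 (SE 0.34, edgeR adjusted p = 0.933), and 10 of the 16 were above 0 (median 0.29). Without P0 WT library 4 the list had 5 positive and 2 negative calls, and it had no call without P28 ME library 1 or 2. With the P0 libraries numbered 1 alone the list had a median of 0.026. Without the libraries numbered 1 it had 3 calls (median 0.40). Kmt2a was its sole call without P0 WT library 2 or 3, P0 ME library 2 or 4, any 1 of the P28 WT libraries, or P28 ME library 3 or 4. Of 16 genes for ENL, DOT1L and elongation factors none was called, 14 were above 0 and the median was 0.53, or 0.56 with the P0 libraries numbered 1 alone and 0.64 without them. Without P0 WT library 4, 6 of them were called with a positive interaction (median 0.62), and no other left-out library gave a call. Cdk9, the elongation kinase, had changes of -0.02 at P0 and 0.58 at P28 (interaction 0.60, SE 0.19, edgeR adjusted p = 0.119), and without P0 WT library 4 its interaction was 0.67 (edgeR adjusted p = 0.0462).

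No interaction was called in the other lists, in the edgeR fit with adjustment over all genes tested. Among 20 cytokine receptors and SOCS genes (median 0.25) the nearest was Socs2, an inhibitor of cytokine signalling. It was at 69.3, 73.6, 59.1 and 82.5 CPM in P0 WT against 9.02, 15.6, 18.8 and 23.1 CPM in P0 ME, then at 29.4, 50.6, 56.7 and 58.9 CPM in P28 WT and 40.0, 49.3, 31.9 and 33.2 CPM in P28 ME. The change was -2.10 at P0 (SE 0.32, edgeR adjusted p = 0.00117) and -0.34 at P28 (SE 0.31), with an interaction of 1.76 (SE 0.44, edgeR adjusted p = 0.0543), which was 1.70 and called without P0 WT library 4 (edgeR adjusted p = 0.0257). The median of the list was 0.20 with the P0 libraries numbered 1 alone and 0.24 without them. Of 21 stem cell genes 11 were above 0 (median 0.02), and Gata2, a stem cell transcription factor, had an interaction of 1.15 (SE 0.32, edgeR adjusted p = 0.0794). Gata2 was called without P0 WT library 4 (1.30, edgeR adjusted p = 0.0141), and its interaction was 1.50 with the P0 libraries numbered 1 alone. Without P0 WT library 4 the stem cell list had 3 calls and a median of 0.21. Without both libraries numbered 1 it had 0 calls and a median of -0.013, and with those alone a median of 0.29. The 15 fetal progenitor genes had a median of -0.06, and Igf2bp2, which binds mRNAs, had an interaction of 1.03 (SE 0.49, edgeR adjusted p = 0.291). The fetal median was 0.11 with the P0 libraries numbered 1 alone, -0.11 without them and 0.079 without P0 WT library 4. The 22 interferon genes had a median of -0.03, and Ifitm3 had the lowest adjusted p (0.407). That median turned on the P0 libraries numbered 1, being -0.96 with them alone, where 0 of the 22 were above 0, and 0.29 without them, where 20 were.

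Markers of other cell types gave no call with all libraries, and their values were wide. The 18 erythroid genes had a median of 0.72, led by Gata1 (2.19, SE 0.62, edgeR adjusted p = 0.083), which was called without P0 WT library 4 (2.15, edgeR adjusted p = 0.0482). The 15 macrophage genes had a median of -1.21 and the 15 hepatocyte genes of -1.01, with Timd4 (-2.70, edgeR adjusted p = 0.321) and Cps1 nearest to a call. Cps1, a urea cycle gene of hepatocytes, was at 0 CPM in the 4 P28 ME libraries and at 0 to 1.57 CPM in P28 WT, and is given no fold. The 15 early B-lymphoid genes had a median of -0.65, with Dntt highest (3.11, SE 1.09, edgeR adjusted p = 0.16). Dntt was at 0.455 to 2.61 CPM in P0 WT and 0 to 0.727 CPM in P0 ME, so its P0 part rests on very low values. At P28 Dntt was at 217 to 294 CPM in WT and 390 to 582 CPM in ME, a change of 0.96 (edgeR adjusted p = 0.398). For the 18 neutrophil and monocyte genes the median was -0.59, with Lyz2 nearest to a call (-1.87, SE 0.81, edgeR adjusted p = 0.252). Lyz2 was called without both P0 libraries numbered 1 (-1.95, edgeR adjusted p = 0.0346) and was -0.0093 with them alone. The 13 megakaryocyte and 13 T and NK genes had medians of -0.05 and 0.25, with Gp9 (-0.90, edgeR adjusted p = 0.195) and Zap70 (4.74, SE 2.21, edgeR adjusted p = 0.281) nearest to a call. Zap70 was at 0 to 3.13 CPM in P0 WT, 0 to 0.564 in P0 ME, 0.0125 to 0.278 in P28 WT and 0.286 to 1.60 in P28 ME. Without P0 WT library 3, the highest of its group, the Zap70 interaction was -0.59. The 15 mast cell and basophil genes had the highest median, 1.80, and it was 0.31 without P0 WT library 1. There Il1rl1, the interleukin-33 receptor of mast cells, was at 473 CPM, against 17.5 to 36.7 CPM in the other P0 WT libraries. With the P0 libraries numbered 1 alone, the medians were 5.17 for mast cell and basophil, -2.68 for early B-lymphoid, 0.75 for erythroid and -0.41 for megakaryocyte genes. The other medians were then -0.28 for macrophage, 0.079 for hepatocyte, -0.16 for neutrophil and monocyte and -0.15 for T and NK genes. Without those libraries the early B-lymphoid and the neutrophil and monocyte genes had 1 negative call each, and the medians were 0.39 for mast cell, -0.74 for early B-lymphoid, 0.75 for erythroid, -1.22 for macrophage, -1.32 for hepatocyte, -0.69 for neutrophil and 0.34 for T and NK genes. Leaving out P0 WT library 4 gave 1 call each in erythroid and megakaryocyte genes, and moved the medians of megakaryocyte and of T and NK genes to -0.50 and -0.43. Of the sorting genes, Kit had an interaction of 0.48 (SE 0.56, edgeR adjusted p = 0.72) and Ly6a, which encodes Sca-1, of 0.20 (SE 0.29, edgeR adjusted p = 0.782). The value of Kit was 0.84 without P0 WT library 4 (edgeR adjusted p = 0.214), and ran from 0.0074 to 0.84 without single libraries.

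**Figure D5:**
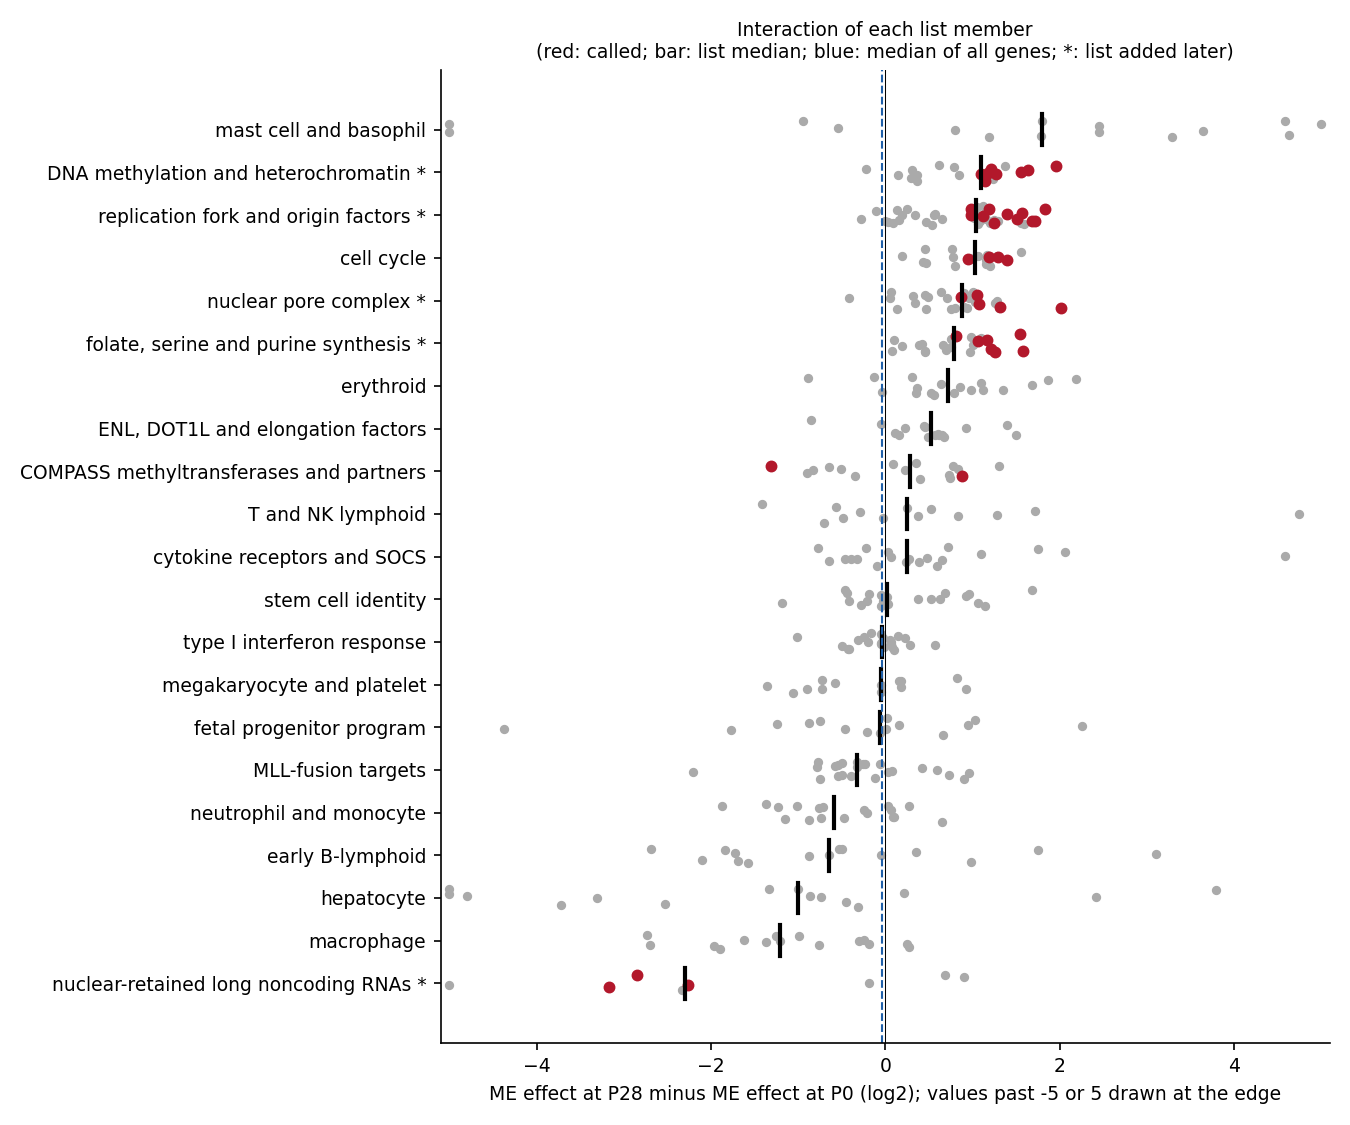
Interaction (log2, horizontal axis) of each tested member of the 21 gene lists, with called genes in red, the list median as a black bar and the median of all genes tested as a dashed blue line. The lists marked with an asterisk were assembled after the values were seen, and 6 members past -5 or 5 are drawn at the edge. The cell cycle, replication, nuclear pore, folate and DNA methylation lists have medians of 0.79 to 1.10, and the nuclear-retained RNAs have one of -2.30.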

How the data were processed

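Bulk RNA-seq was deposited as 1 table of raw read counts per Ensembl gene, made by the authors, with 24 count columns. Per the labels' protocols, RNA came from a Qiagen RNeasy Plus extraction and libraries from a Clontech kit (spelled "SMRTr" there). The submitters' processing notes name STAR 2.7.9a, Subread, featureCounts 2.0.3 and the build GRCm38. Annotation, strand setting and handling of multi-mapping reads are not given in the sources used here. The table held 55774 entries for 55487 distinct IDs, and 287 repeats with identical counts were dropped. A GENCODE M21 gene was found for 55227 IDs and gave symbols and coordinates.

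Genes were kept with the edgeR filterByExpr function at a minimum count of 10 (23059 genes). After TMM scaling, the robust quasi-likelihood model of edgeR 4.0.16 (R 4.3.3) was fitted to all 24 libraries, 1 mean per group, leaving 18 residual degrees of freedom. The contrast was (P28 ME minus P28 WT) minus (P0 ME minus P0 WT). Both age effects came from the same fit and share its libraries. Each gene has 1 spread estimate over all groups, so the SE and p-value given for an age do not measure the spread at that age alone. Values per library are TMM-normalised CPM. Log2 CPM used a prior count of 2. The test was tried on counts simulated with 1 spread per gene for all groups. That simulation does not hold the wider spread of the P0 libraries, so it cannot speak to the stability of the calls. No outcome of it is used here. No pair of replicates agreed within counting noise (chi-square per degree of freedom of 35.96 to 826.7), so all libraries were kept.

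The comparison, its gene lists and its named genes were chosen with earlier results of these data known. Named genes were the 8 largest positive and 8 largest negative called interactions whose mean log2 CPM reached 3, the genes called at both ages with opposite signs, up to 4 called at P0 only, up to 6 called at P28 only with a P0 change under 0.25, up to 4 called at neither age, and per list the called members (at most 4) or the nearest to a call, without predicted, immunoglobulin, T-cell receptor and Y-linked genes, Xist and Tsix. Kit, Ly6a, Kmt2a, Mllt1 and Kmt2c were checks. Dusp6, Baz2b, Mcm4, Lig1, Shmt1, Mthfd1, Uhrf1, Cdca7, Malat1, Hoxa9 and Meis1, other members named from lists, and 5 of the 21 lists were picked after values were seen. Alternatives were other scaling, DESeq2 1.42.0, limma 3.58.1 voom with quality weights, other filters, fewer libraries, a term for the P0 libraries numbered 1, and a replicate block. The floor of a group is 3 counts in each of its libraries, which covers counting error only. Promoter windows and figures were made in Python 3.11.15 with matplotlib 3.10.9.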

Additional observations from a re-analysis of the deposited data

Results flagged for a closer look

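The 41 named genes with a called interaction are those that passed the edgeR test of the difference between the ages, so listing them is no further test. Without P28 ME library 1, 35 of them lost their call, and 19 were called with only the 16 libraries. The values below are log2 effects at P28 minus those at P0, and all 41 are described above. Those with a positive value were Col18a1 (2.92), Ehd3 (2.88), Nup205 (2.02), Brca1 (2.01), Dnmt1 (1.96), Slc25a25 (1.89), Pola1 (1.83), Aunip (1.76), Suv39h2 (1.64), Dusp6 (1.60), Mthfd1 (1.58), Lig1 (1.57), Uhrf1 (1.56), Shmt1 (1.55), Mcm4 (1.51), Mcm5 (1.39), Nup93 (1.32), Bub1 (1.29), Phgdh (1.26), Gem (1.21), Mcm6 (1.19), Cdca7 (1.14), Ttc27 (1.12), Nup50 (1.06), Rpa2 (0.98), Ccnb2 (0.95), Psip1 (0.88) and Paics (0.82). Those with a negative value were Mir99ahg (-3.17), Ccl3 (-3.10), Kcnq1ot1 (-2.85), Ino80dos (-2.63), Mirt1 (-2.52), Tfec (-2.46), Neat1 (-2.27), Postn (-2.22), Nabp1 (-1.44), Slc35a5 (-1.41), Kmt2a (-1.31), Rabgap1l (-1.04) and Baz2b (-1.01).

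Within groups of 4 libraries, a single library stood far from the other 3 in 21 of 248 groups of the named genes (gap to the nearest value over the whole range above 0.829, Dixon's limit). Chance alone gives about 1 in 20 such groups. At P0, P0 WT library 4 was low in Ehd3 (2.71 CPM) and Mcm6 (348 CPM) and high in Malat1 (1551 CPM). P0 WT library 1 was low in Myc (121 CPM) and high in Il1rl1 (473 CPM) and Meis1 (277 CPM). Cps1 was high in P0 WT library 2 (2.79 CPM) and Zap70 in P0 WT library 3 (3.13 CPM). Among P0 ME libraries, library 1 was low in Kcnq1ot1 (33.7 CPM), and library 4 was high in Slc35a5 (80.1 CPM) and low in Mirt1 (3.95 CPM). P0 ME library 3 was high in Uhrf1 (217 CPM) and Zap70 (0.564 CPM) and low in Ifitm3 (290.0 CPM). At P28, WT library 2 was low in Kmt2c (24.4 CPM), WT library 3 high in Cps1 (1.57 CPM) and WT library 4 high in Slc25a25 (12.4 CPM). P28 ME library 1 was low in Gata1 (12.3 CPM), library 2 high in Paics (628 CPM), library 3 high in Timd4 (0.486 CPM) and library 4 low in Phgdh (417 CPM).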

How the results depend on the processing

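The 41 named called genes kept their sign under each alternative and left-out library, which their choice by a call in these same libraries favours. The number of called interactions, 166, was 86 with RLE factors, 73 with plain totals, 774 with DESeq2, 34 with limma voom, 65 without a filter, 41 with only the 16 libraries and 341 with a term for the P0 libraries numbered 1, and 11 to 1653 without single libraries. The 148 calls at P0 became 804 (DESeq2), 13 (voom), 35 (16 libraries), 238 (both P0 libraries numbered 1 left out) and 260 (term for them), and 104 to 575 without single libraries, the highest without P0 WT library 1. The 2827 calls at P28 became 6284 (voom), 1767 (no filter), 1869 (16 libraries) and 5443 (P0 libraries numbered 1 alone, chosen after seeing the data), and 893 to 4005 without single libraries.

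The class called at P28 only, 134 genes, became 65 (RLE), 56 (totals), 472 (DESeq2), 32 (voom), 51 (no filter), 40 (16 libraries), 245 (term) and 39 (numbered 1 alone), and 11 to 1303 without single libraries. The class called at P0 only, 16 genes, became 166 (DESeq2), 0 (voom), 6 (no filter), 0 (16 libraries), 53 (numbered 1 left out), 47 (term) and 54 (numbered 1 alone), and 0 to 89 without single libraries. The class with opposite signs, 1 gene, became 2 (totals), 26 (DESeq2), 0 (voom), 0 (no filter), 6 (at least 10 counts in 12 libraries), 0 (16 libraries), 2 (numbered 1 left out) and 4 (term), and 0 to 13 without single libraries. The class with the same sign, 2 genes, became 1 (RLE), 0 (totals), 0 (no filter), 1 (at least 10 counts in 12 libraries) and 1 (16 libraries), and 0 to 4 without single libraries. The class called at neither age, 13 genes, became 7 (RLE), 3 (totals), 107 (DESeq2), 0 (voom), 8 (no filter), 20 (at least 10 counts in 12 libraries), 0 (16 libraries), 36 (numbered 1 left out) and 43 (term), and 0 to 287 without single libraries.

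Called cell cycle genes, 4, became 2 (RLE), 0 (totals), 10 (DESeq2), 0 (voom), 1 (no filter), 1 (16 libraries), 2 (numbered 1 left out) and 9 (term), and 0 to 11 without single libraries. Called replication genes, 11, became 6 (RLE), 1 (totals), 18 (DESeq2), 0 (voom), 5 (no filter) and 5 (16 libraries), and 0 to 21 without single libraries. The cause of these moves was not tested. Counts given above for the P0 libraries numbered 1 alone come from the fit with 1 library per P0 group. That fit cannot measure the spread at P0, so no conclusion is drawn from these counts, and not all of them are listed.

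Replicate numbers were not taken as pairing the libraries in the main fit. Yet 12 of 24 same-number pairs correlated above 0.1 in their deviations (-0.406 to 0.666), with a median of 0.080 against -0.038 for other pairs. Outside their own group, 10 of 16 libraries correlated best with a library of their own number. Between P0 WT and P0 ME, the pairs numbered 1 to 4 correlated at 0.666, 0.056, 0.376 and 0.475. What same-number libraries share was not tested, and the main fit has no term for it. On the 20 libraries with a number, 331 interactions were called with a replicate block and 364 without. With the block and without it, in that order, the counts were 272 and 293 for P28 only, 2 and 2 for opposite signs, 31 and 42 for neither age, and 11 and 10 for cell cycle genes. The same-sign class had 4 with the block.

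Only uncalled genes changed sign. Timd4 was 0.025 and Ifitm3 -0.47 with the P0 libraries numbered 1 alone. Ly6a was -0.031 with plain totals, -0.14 with the P0 libraries numbered 1 alone and -0.11 (without P0 WT library 4) to 0.37 without single libraries. Kmt2c was -0.0061 with RLE, -0.11 with plain totals, -0.0062 with DESeq2 and -0.11 to 0.26 without single libraries. Zap70 ran from -0.59, without P0 WT library 3, to 6.79 without single libraries. Libraries held at least 31233688 counts, and genes near the floor of 3 counts are the ones depth limits most.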
